A study of Mus musculus with 6 samples.

Results

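The genes described here are 9 endothelial genes that respond to blood flow: Klf2, Klf4, Klf6, Klf10, Nos3, Thbd, Piezo1, Cyp1b1 and Edn1. They were chosen by name with earlier results of these data known, and each was found among the 19124 gene symbols of the deposited table. RNA was measured in 6 libraries of CD31-sorted retinal cells from C57BL/6 mouse pups at postnatal day 7. The KO group (3 pups, Pdgf{beta}CreERT2pos Rnf20p/p) carried the Rnf20p/p alleles and a tamoxifen-inducible recombinase under the endothelial Pdgfb promoter, and the Ctrl group (3 pups, Pdgf{beta}CreERT2neg Rnf20p/p) carried the same alleles without the recombinase. Pups of both groups received 75 µg of Z-4-HO-Tamoxifen daily from postnatal day 1 to day 4, so any effect of the recombinase itself cannot be told apart from loss of Rnf20, an E3 ligase for histone H2B. The sort for CD31, which marks the endothelial surface, can also take platelets and leukocytes.

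Flowing blood drags on the endothelial surface, and the cells sense this shear stress through mechanosensitive channels such as Piezo1 and through protein complexes at their junctions. A kinase cascade from MEKK3 over MEK5 to ERK5 activates MEF2 factors, which switch on the zinc finger transcription factors Klf2 and Klf4. These raise the nitric oxide synthase Nos3 and the anticoagulant receptor Thbd and lower the vasoconstrictor Edn1. In the growing retina the newly perfused vessels start to remodel under flow while sprouting goes on at the front.

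The libraries held between 14581701 and 30692948 counts. Rnf20 had 39.1, 31.0 and 31.7 CPM (counts scaled to a common library size) in KO 1, 2 and 3, against 47.9, 57.1 and 56.8 CPM in Ctrl 1, 2 and 3. Its log2 fold change of −0.67 missed the threshold of edgeR's quasi-likelihood F-test after Benjamini-Hochberg adjustment (adjusted p = 0.101, or 0.0373 with a log2 fold change of −0.71 without KO 1). Scaled to equal endothelial markers, Rnf20 was at −1.97 and passed the same edgeR test (adjusted p = 0.00221). On that scale the median of all genes was −1.30 and 50.4% were called as lower. The 15 endothelial markers summed to between 10497 and 14882 CPM in KO and between 3247 and 5093 CPM in Ctrl, with 10 of 15 higher and 0 lower past the threshold and a median log2 fold change of 1.45. The 14 photoreceptor markers summed to between 5969 and 25541 CPM in KO and between 22779 and 38880 CPM in Ctrl. The 14 microglial markers summed to between 264 and 14283 CPM in KO and between 282 and 1830 CPM in Ctrl. All 14 microglial estimates were above 0 (median log2 fold change 2.18), with 0 past the threshold. Without KO 1, 8 of the 14 passed as higher, where 15.2% of all genes did. Of 12 mural markers, 11 had estimates above 0 (median 1.14), with 1 past the threshold and sums that overlapped between the groups. None of these markers was at 0 in all libraries. Markers of other cells were higher in KO too: the erythroid list summed to between 460 and 685 CPM in KO and between 61.7 and 98.2 CPM in Ctrl, with 5 of 6 tested genes past the threshold on the TMM scale (median log2 fold change 2.91) and 5 of 6 when scaled to endothelial markers (1.66). Platelet markers (2 of 4 past, median 1.44), ganglion cell markers (2 of 7, 1.29) and glial markers (4 of 12, 1.02) also had sums that did not overlap between the groups, all higher in KO on the TMM scale, while scaled to endothelial markers their medians were 0.10, −0.16 and −0.29. The part of these cells in the results below was not tested. The libraries held RNA of other retinal cells beside that of endothelium. In such bulk RNA, fewer cells of a type and less RNA per cell cannot be told apart.

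**Figure D1:**
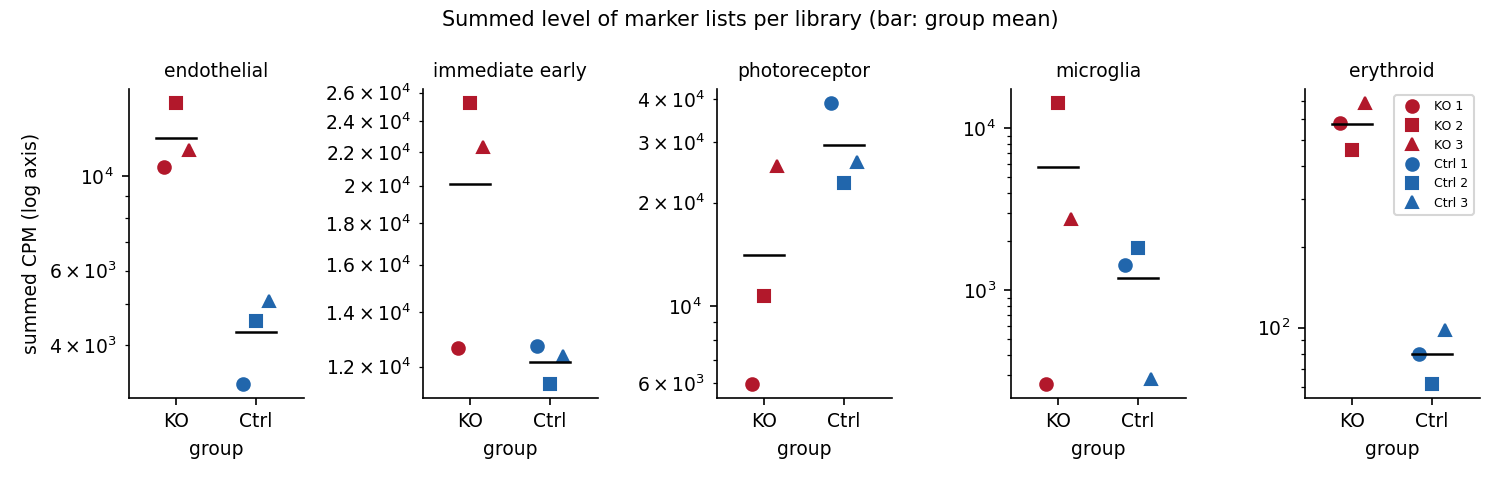
Summed CPM of 5 marker lists (vertical axes, log scale, each panel with its own range) in each KO and Ctrl library, with the bar at the group mean. All KO libraries lay above all Ctrl libraries for the endothelial and erythroid sums, while the immediate early, photoreceptor and microglial sums of the groups overlapped.

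Of the 9 genes, 4 rose in KO (Klf2, Klf4, Nos3 and Piezo1) and 1 fell (Cyp1b1), while Thbd, Edn1, Klf6 and Klf10 did not pass edgeR's quasi-likelihood F-test at 0.05. Over all 16217 genes tested, 10.3% were past this threshold, 5.85% higher and 4.44% lower. All 9 genes passed the filter on low counts. Their median log2 fold change was 1.42, against 0.03 over all genes tested. The groups did not overlap for 7 of the 9 genes (6 higher and 1 lower in KO), and for 37.9% of all genes tested (19.0% higher and 18.9% lower). The authors' deposited table, made with DESeq2, called 7 of the 9 at an adjusted p under 0.05, beside 21.8% of all genes with a value there. DESeq2 run on the same counts also called 7, where 23.4% of genes were called, and limma-voom called 6, where 11.8% were. Because the 9 genes were chosen with earlier results of these data known, these shares describe them and do not test them against all genes.

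The count depended on single libraries. It was 6 without KO 1, where 29.7% of all genes were called, 3 without KO 3, where 5.23% were, and 0 without KO 2, Ctrl 1, Ctrl 2 or Ctrl 3. In those last 4 fits 0 of all genes passed edgeR's quasi-likelihood F-test, while between 3434 and 4005 genes had an unadjusted p below 0.05, and 6 or 7 of the 9 genes were among them. The counts of called genes given below for wider gene lists were likewise 0 when any 1 of these 4 libraries was left out. With TMM scaling and all libraries, these list counts stand beside 5.85% of all genes called as higher and 4.44% as lower. The lists too were chosen with earlier results of these data known.

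**Figure D2:**
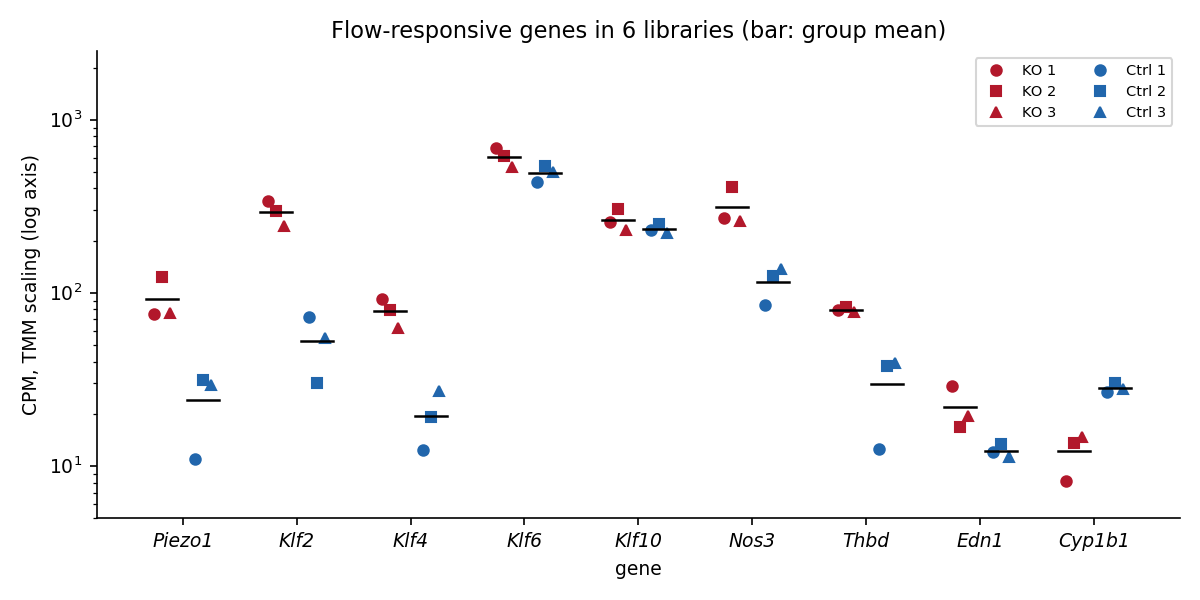
CPM with TMM scaling (vertical axis, log scale) of the 9 genes in the 3 KO and 3 Ctrl libraries, with the bar at the group mean. Every KO library lies above every Ctrl library for Piezo1, Klf2, Klf4, Nos3, Thbd and Edn1, and below every Ctrl library for Cyp1b1, while for Klf6 and Klf10 KO 1 and KO 2 lie above every Ctrl library and KO 3 lies among them.

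Piezo1 is a channel that opens when the membrane is stretched and lets calcium into endothelial cells under flow (NM_001037298, chromosome 8, 122481698 to 122551329, minus strand, GRCm38.p6, 51 exons). Its level was 75.6, 124 and 76.4 CPM in KO 1, 2 and 3, against 11.0, 31.4 and 29.4 CPM in Ctrl 1, 2 and 3. The groups did not overlap, KO 2 was the highest library and Ctrl 1 lay far below the other Ctrl libraries. The mean was 91.9 ± 27.4 CPM in KO and 23.9 ± 11.3 CPM in Ctrl (SD, n = 3 each), a 3.84-fold difference. Its log2 fold change of 1.94 (SE 0.431) passed edgeR's quasi-likelihood F-test (adjusted p = 0.0327). It lay between 1.59 and 2.19 when 1 library was left out, where edgeR's adjusted p ran from 0.0122 to 0.119 and passed only without KO 1. The last 1395 bases of Piezo1 overlap Ctu2, a tRNA-modifying enzyme on the other strand. Counting did not mark strand, so reads there cannot be assigned. Gm20388, annotated across Piezo1 on the other strand, and Gm26497, a small nuclear RNA gene within it, were not analysed here. Ctu2 had 70.3, 120 and 120 CPM in KO 1, 2 and 3, against 61.6, 46.2 and 48.4 CPM in Ctrl 1, 2 and 3, and missed the threshold of edgeR's quasi-likelihood F-test (log2 fold change 0.99, adjusted p = 0.0626).

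Around Piezo1, 18 flow sensors and junctional partners were tested. Of them 4 rose and 0 fell, with a median log2 fold change of 1.10, or −0.18 when the libraries were scaled to equal endothelial markers. Pecam1 and Cdh5 of this list are also among the 15 endothelial markers, so that scaling partly sets their values by construction. Apart from Piezo1, the genes that passed were Flt4, a VEGF receptor that sets the shear level endothelium responds to (log2 fold change 1.31), Plxnd1, a semaphorin receptor that also senses flow (1.84), and Cdh5, the cadherin of endothelial junctions (1.10). Plxnd1 averaged 316 ± 108 CPM in KO and 88.0 ± 29.0 CPM in Ctrl (SD, n = 3 each). The related channel Piezo2 had a log2 fold change of 1.46 and was not past edgeR's quasi-likelihood F-test (adjusted p = 0.0930).

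Downstream of the sensors, 14 genes of the kinase cascade, its MEF2 factors and their regulators had a median log2 fold change of 0.05, or −1.24 when scaled to endothelial markers. Of these 1 rose and 0 fell, where 5.85% of all genes tested rose and 4.44% fell. The one that rose was Hdac7, an endothelial deacetylase that holds MEF2 factors in check. It averaged 143 ± 20.7 CPM in KO and 37.9 ± 1.74 CPM in Ctrl (SD, n = 3 each, log2 fold change 1.92). The kinase Map3k3, which encodes MEKK3, had an estimate of 1.09 that edgeR's quasi-likelihood F-test did not call (adjusted p = 0.0809).

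Klf2, the zinc finger factor that flow raises in endothelium (NM_008452, chromosome 8, 72319062 to 72321654, plus strand, GRCm38.p6, 3 exons), had the largest change of the 9 genes. Its level was 337, 296 and 243 CPM in KO 1, 2 and 3, against 72.5, 30.0 and 54.7 CPM in Ctrl 1, 2 and 3. Every KO library stood well above every Ctrl library. The mean was 292 ± 47.0 CPM in KO and 52.4 ± 21.3 CPM in Ctrl (SD, n = 3 each), a 5.58-fold difference. With a log2 fold change of 2.48 (SE 0.359) it passed edgeR's quasi-likelihood F-test (adjusted p = 0.0211). The log2 fold change lay between 2.20 and 2.79 when 1 library was left out, with edgeR's adjusted p from 0.00586 to 0.112, and passed without KO 1 or KO 3. The authors' deposited table gives Klf2 a log2 fold change of 2.57 (SE 0.384, adjusted p = 8.23e-09 by DESeq2).

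Klf4, a close relative that shares many targets with Klf2 (NM_010637, chromosome 4, 55527137 to 55532475, minus strand, GRCm38.p6, 5 exons), moved the same way. It had 92.1, 79.1 and 62.4 CPM in KO 1, 2 and 3, against 12.4, 19.1 and 26.9 CPM in Ctrl 1, 2 and 3. The groups did not overlap, with Ctrl 1 the lowest library and KO 1 the highest. The mean was 77.9 ± 14.9 CPM in KO and 19.5 ± 7.26 CPM in Ctrl (SD, n = 3 each), a 4.00-fold difference with a log2 fold change of 2.00 (SE 0.339). It passed edgeR's quasi-likelihood F-test (adjusted p = 0.0224). Without 1 library the log2 fold change lay between 1.76 and 2.30, with edgeR's adjusted p from 0.00772 to 0.115, and passed without KO 1 or KO 3. In the Ctrl libraries Klf2 was highest in Ctrl 1, where Klf4 was lowest.

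The promoters of these 2 factors are shown because MEF2 lies upstream of both in the flow pathway. RefSeq (GRCm38.p6) gave the window from 250 bases before to 50 bases after the start for 6 of the 9 genes: Klf2, Klf4, Klf6, Piezo1, Edn1 and Cyp1b1. Each was searched on both strands for the MEF2 site, the KLF box CACCC, the shear stress element GAGACC, the AP-1 site TGANTCA and the AHR core GCGTG. The Klf2 window (chr8:72318812-72319111, plus strand) holds a MEF2 match 118 bases before the start and a CACCC match on the other strand 19 bases before it, both in capitals. The Klf4 window (chr4:55532426-55532725, minus strand) holds none of the 5 motifs.
Klf2: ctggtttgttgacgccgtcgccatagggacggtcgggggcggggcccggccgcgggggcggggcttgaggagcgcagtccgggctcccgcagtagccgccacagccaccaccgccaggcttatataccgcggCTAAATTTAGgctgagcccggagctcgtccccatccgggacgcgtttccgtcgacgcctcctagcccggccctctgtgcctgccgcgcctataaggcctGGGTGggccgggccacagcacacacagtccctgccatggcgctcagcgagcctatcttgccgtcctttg
Klf4: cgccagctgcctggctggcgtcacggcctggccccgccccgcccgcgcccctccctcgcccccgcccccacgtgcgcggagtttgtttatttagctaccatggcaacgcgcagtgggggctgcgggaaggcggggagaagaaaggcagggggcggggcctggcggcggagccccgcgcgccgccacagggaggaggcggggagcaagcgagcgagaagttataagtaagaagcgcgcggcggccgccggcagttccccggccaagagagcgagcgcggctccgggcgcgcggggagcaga
Of 32851 promoter windows of this length, 0.557% hold the MEF2 site and 57.5% hold CACCC. Of the 6 windows, the MEF2 site was found in Klf2 alone and TGANTCA in none. These are matches of letters and say nothing of binding.

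Klf6, a factor induced by vessel injury (NM_011803, chromosome 13, 5861489 to 5870393, plus strand, GRCm38.p6, 4 exons), was abundant in all libraries. It had 686, 613 and 531 CPM in KO 1, 2 and 3, against 436, 537 and 497 CPM in Ctrl 1, 2 and 3. KO 3 lay just below Ctrl 2, so the groups overlapped. The log2 fold change of 0.32 (SE 0.232) did not pass edgeR's quasi-likelihood F-test (adjusted p = 0.391).

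Klf10, an early target of TGF-beta signalling (NM_001289471, chromosome 15, 38291464 to 38300711, minus strand, GRCm38.p6, 5 exons), had 254, 304 and 232 CPM in KO 1, 2 and 3, against 231, 250 and 221 CPM in Ctrl 1, 2 and 3. KO 1 and KO 2 lay above every Ctrl library and KO 3 among them, so the groups overlapped. The estimate of 0.17 (SE 0.224) on the log2 scale was not called by edgeR's quasi-likelihood F-test (adjusted p = 0.641). Its 3 transcript entries in the table overlap and hold nearly the same reads, with 6492, 6134 and 6471 counts in KO 1, and the longest was used. Gm35248, which overlaps it on the other strand, was not analysed here.

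In the wider KLF family, 3 of 15 tested genes rose and 0 fell, with a median log2 fold change of 0.50, or −0.85 when scaled to endothelial markers. Beside Klf2 and Klf4 this was Klf16, with 18.7 ± 3.86 CPM in KO and 7.06 ± 0.872 CPM in Ctrl (SD, n = 3 each, log2 fold change 1.40). Klf3 had a log2 fold change of 1.08 and lay close to the threshold of edgeR's quasi-likelihood F-test (adjusted p = 0.0531). DESeq2 and limma-voom called Klf3 as higher (adjusted p = 0.00864 and 0.0429). Klf15, Klf12 and Klf9 had estimates below 0, at −1.08, −0.68 and −0.63, and missed the threshold of edgeR's quasi-likelihood F-test (adjusted p = 0.150, 0.157 and 0.240).

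Measured per kilobase of exonic sequence, so that levels can be compared between genes, Klf2 stood at 158 ± 25.4 CPM per kb in KO, beside Klf6 at 144 ± 18.3 and Klf10 at 123 ± 17.2 (SD, n = 3). Neighbours in this order overlapped. In Ctrl, Klf2 stood at 28.4 ± 11.6 CPM per kb, below Klf6 at a mean of 116 and Klf10 at 109 ± 6.77, with no overlap between Klf10 and Klf2. Nos3 followed at 75.2 ± 20.0 CPM per kb in KO and 28.0 ± 6.65 in Ctrl. Klf4, Thbd, Piezo1 and Edn1 lay between 10.2 and 25.7 CPM per kb in KO and between 2.91 and 8.01 in Ctrl. Cyp1b1 was the lowest of the 9 in KO at 2.36 ± 0.668 CPM per kb, while in Ctrl it stood at 5.50 ± 0.317 and Piezo1 was the lowest.

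Klf2, Klf4, Klf6 and Klf10 are also early response genes that cell dissociation is known to raise, so a list of 24 immediate early genes was set beside them. Of these 8 rose and 0 fell, with a median log2 fold change of 0.92, or −0.43 when scaled to endothelial markers. Without KO 1, 16 of the 24 rose, where 15.2% of all genes did, against 5.85% with all libraries. Rhob, a small GTPase (log2 fold change 2.04), and Nfkbia, the inhibitor of NF-kB (2.05), were among those that rose. The classical members Fos (0.21) and Egr1 (0.08) did not pass edgeR's quasi-likelihood F-test (adjusted p = 0.700 and 0.894). The list summed to 12668, 25245 and 22281 CPM in KO 1, 2 and 3, against 12721, 11437 and 12356 CPM in Ctrl 1, 2 and 3. KO 1 lay within the Ctrl range for this sum, which the most abundant genes weigh most. The mean log2 CPM of the list was 7.80, 8.73 and 8.33 in KO 1, 2 and 3. In Ctrl 1, 2 and 3 it was 7.38, 7.20 and 7.30, so by this measure every KO library, KO 1 included, lay above every Ctrl library. Klf2, Klf4 and Klf6 were highest in KO 1 and Klf10 in KO 2. The microglial markers, from cells that can express Klf2 and Klf4, were lowest in KO 1, at 264 CPM. The part of dissociation and of microglia in these levels was not tested.

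Nos3, the endothelial nitric oxide synthase (NM_008713, chromosome 5, 24364816 to 24384474, plus strand, GRCm38.p6, 26 exons), had 268, 406 and 258 CPM in KO 1, 2 and 3, against 85.0, 125 and 138 CPM in Ctrl 1, 2 and 3. The groups did not overlap, and KO 2 stood above the other KO libraries. The mean was 311 ± 82.6 CPM in KO and 116 ± 27.5 CPM in Ctrl (SD, n = 3 each), a 2.68-fold difference. On the log2 scale this was 1.42 (SE 0.299), which passed edgeR's quasi-likelihood F-test (adjusted p = 0.0294). It lay between 1.21 and 1.60 when 1 library was left out, with edgeR's adjusted p from 0.00953 to 0.131, and passed without KO 1 or KO 3. The last 294 bases of Nos3 overlap Atg9b on the other strand, which had 15.7, 6.49 and 4.70 CPM in KO 1, 2 and 3 and 2.43, 5.08 and 4.63 CPM in Ctrl 1, 2 and 3. Gm15587, a non-coding gene annotated within the Nos3 span on the other strand, was not analysed here, and reads of it would be counted as Nos3.

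Of 20 genes of nitric oxide synthesis and signalling, 3 rose and 1 fell, with a median log2 fold change of 0.80, or −0.47 when scaled to endothelial markers. Those that rose beside Nos3 make tetrahydrobiopterin, the cofactor Nos3 needs. Gch1, its first enzyme, averaged 111 ± 9.01 CPM in KO and 33.5 ± 10.2 CPM in Ctrl (log2 fold change 1.74), and Spr, its last, 48.2 ± 19.6 CPM in KO and 16.1 ± 5.31 CPM in Ctrl (1.58, SD, n = 3 each). Pts, the enzyme between them, had an estimate of −0.89 that edgeR's quasi-likelihood F-test did not call (adjusted p = 0.0602). Arg2, an arginase that competes with Nos3 for arginine, fell to 5.05 ± 0.470 CPM in KO, against 11.5 ± 1.00 CPM in Ctrl (SD, n = 3 each, log2 fold change −1.19).

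Thbd, thrombomodulin, the endothelial receptor that turns thrombin towards activating protein C (NM_009378, chromosome 2, 148404471 to 148408188, minus strand, GRCm38.p6, 1 exon), had 79.3, 83.1 and 77.3 CPM in KO 1, 2 and 3, against 12.5, 37.8 and 39.1 CPM in Ctrl 1, 2 and 3. The KO libraries lay close together and above all Ctrl libraries, among which Ctrl 1 was far below the others. The mean was 79.9 ± 2.93 CPM in KO and 29.8 ± 15.0 CPM in Ctrl (SD, n = 3 each), a 2.68-fold difference. The log2 fold change of 1.42 (SE 0.414) did not pass edgeR's quasi-likelihood F-test (adjusted p = 0.0632), and did so without KO 1 (1.50, adjusted p = 0.0365). DESeq2 and limma-voom placed it past the threshold (adjusted p = 0.00892 and 0.0421). Without Ctrl 1 the log2 fold change was 1.05.

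Among 10 genes of the thrombomodulin and haemostasis list, 2 rose and 0 fell, with a median log2 fold change of 1.18, or −0.14 when scaled to endothelial markers. Procr, the receptor that presents protein C to thrombomodulin, averaged 68.6 ± 8.51 CPM in KO and 21.3 ± 11.4 CPM in Ctrl (SD, n = 3 each, log2 fold change 1.69). All 10 estimates were above 0 with TMM scaling.

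Edn1, the vasoconstrictor peptide that steady flow is known to lower (NM_010104, chromosome 13, 42301476 to 42307990, plus strand, GRCm38.p6, 5 exons), had 29.0, 16.8 and 19.5 CPM in KO 1, 2 and 3, against 11.99, 13.3 and 11.3 CPM in Ctrl 1, 2 and 3. The groups did not overlap, with KO 1 standing above the other KO libraries. The mean was 21.8 ± 6.37 CPM in KO and 12.2 ± 1.04 CPM in Ctrl (SD, n = 3 each), a 1.78-fold difference. At a log2 fold change of 0.84 (SE 0.309) it was not past the threshold of edgeR's quasi-likelihood F-test (adjusted p = 0.116). Gm47118, an antisense gene that overlaps Edn1, was not analysed here. DESeq2 placed Edn1 past the threshold (adjusted p = 0.0455), as did edgeR with offsets for transcript GC content (log2 fold change 1.11, adjusted p = 0.0279). Its promoter window (chr13:42301226-42301525, plus strand) holds the shear stress element GAGACC on the other strand 98 bases before the start and CACCC on the other strand at 3 places, all in capitals.
Edn1: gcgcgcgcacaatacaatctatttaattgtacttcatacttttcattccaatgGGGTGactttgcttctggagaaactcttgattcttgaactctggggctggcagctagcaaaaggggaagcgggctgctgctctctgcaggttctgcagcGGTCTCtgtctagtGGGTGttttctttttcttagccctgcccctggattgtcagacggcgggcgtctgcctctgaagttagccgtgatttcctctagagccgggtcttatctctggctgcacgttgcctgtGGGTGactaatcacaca
Of all windows 16.4% hold GAGACC. It was also found in the windows of Piezo1 and Cyp1b1.

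None of the 7 genes of the endothelin system passed edgeR's quasi-likelihood F-test. In that test 2 of the 7 had an unadjusted p below 0.05, as did 4953 of all 16217 genes tested. Of the 7, DESeq2 called Edn1 alone, but gave no adjusted p for Edn3 and Ece2, and limma-voom called 0. Ece1, the enzyme that releases the active peptide, had 379 ± 86.5 CPM in KO and 302 ± 32.1 CPM in Ctrl (SD, n = 3 each). The lowest adjusted p beside Edn1 belonged to Edn3, a related peptide, and Ece2, a related enzyme (0.0716 and 0.230 in edgeR's test). Both averaged under 1 CPM over the libraries, so their log2 fold changes of 3.47 and 1.85 rest on few reads.

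Cyp1b1, an oxidising enzyme that flow raises in cultured human endothelium through the aryl hydrocarbon receptor AHR (NM_009994, chromosome 17, 79706940 to 79715061, minus strand, GRCm38.p6, 3 exons), was the gene of the 9 that fell. It had 8.19, 13.5 and 14.6 CPM in KO 1, 2 and 3, against 26.8, 30.0 and 27.9 CPM in Ctrl 1, 2 and 3. The Ctrl libraries lay close together, all above the KO libraries, of which KO 1 was the lowest. The mean was 12.1 ± 3.42 CPM in KO and 28.2 ± 1.62 CPM in Ctrl (SD, n = 3 each). Its log2 fold change of −1.22 (SE 0.308) passed edgeR's quasi-likelihood F-test (adjusted p = 0.0449). It lay between −1.32 and −0.94 when 1 library was left out, with edgeR's adjusted p from 0.0230 to 0.175, and passed only without KO 1. It was −0.83 with GC offsets (adjusted p = 0.147) and −1.22 with no filter on low counts, where edgeR tested more genes (adjusted p = 0.0521).

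The AHR genes stood apart from the other lists in direction. Of 6 tested 0 rose and 3 fell, with a median log2 fold change of −0.97, or −2.26 when scaled to endothelial markers and −0.48 with GC offsets. Of the 6, Nqo1 alone had an estimate above 0 (1.16, adjusted p = 0.130 in edgeR's quasi-likelihood F-test). Cyp1a1, also on the list, had too few counts to be tested. Its counts were 30, 6 and 14 in KO 1, 2 and 3, against 0, 8 and 2 in Ctrl 1, 2 and 3. Ahr itself, the receptor, had 35.3, 29.6 and 39.8 CPM in KO 1, 2 and 3, against 117, 94.9 and 105 CPM in Ctrl 1, 2 and 3. Every KO library was below every Ctrl library, and the log2 fold change of −1.60 (SE 0.235) passed edgeR's quasi-likelihood F-test (adjusted p = 0.0211). Ahrr, the repressor that AHR itself induces, fell to 1.16 ± 0.706 CPM in KO, against 7.83 ± 3.59 CPM in Ctrl (SD, n = 3 each, log2 fold change −2.75). Arnt, the partner with which AHR binds DNA, had a log2 fold change of −0.28 and Tiparp, another AHR target, one of −0.72. Neither passed edgeR's quasi-likelihood F-test (adjusted p = 0.468 and 0.335). All 14 photoreceptor markers and 11 of 14 tested inner neuron markers also had estimates below 0, with 3 and 4 past the threshold and medians of −0.81 and −0.74, and their part in the fall of the AHR genes was not tested. The Cyp1b1 window (chr17:79715012-79715311, minus strand) is shown because it holds the AHR core GCGTG, on the other strand 76 bases before the start. The capitals also mark CACCC at 3 places and GAGACC.
Cyp1b1: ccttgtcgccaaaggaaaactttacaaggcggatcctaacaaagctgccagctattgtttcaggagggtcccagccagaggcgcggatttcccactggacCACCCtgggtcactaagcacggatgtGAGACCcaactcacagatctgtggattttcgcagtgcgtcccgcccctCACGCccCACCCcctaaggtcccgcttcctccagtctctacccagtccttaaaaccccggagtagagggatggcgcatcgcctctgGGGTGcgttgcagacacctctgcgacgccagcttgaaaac
Of all windows 32.4% hold GCGTG. Among the 6 it was found in Cyp1b1 and Klf6.

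Genes listed as raised and genes listed as lowered by laminar flow were compared. These directions were set by the lists, were not measured here and may not hold for every gene under all flow. Of 14 other genes listed as raised, 5 rose and 0 fell, with a median log2 fold change of 1.26, or −0.07 when scaled to endothelial markers. Among them were Gja4, a gap junction protein of arteries (2.12), and Ptgis, which makes the vasodilator prostacyclin (1.72). Another gene of this list, Tek, is also among the 15 endothelial markers. Of 14 genes listed as lowered, Edn1 among them, 3 rose and 0 fell, with a median of 1.13, or −0.19 when scaled to endothelial markers. The order of these counts changed with the fit. With GC offsets 2 of the flow-raised and 7 of the flow-lowered genes passed as higher (6.52% of all genes), with DESeq2 6 and 11 (13.2%), without KO 1 8 and 8 (15.2%), and without KO 3 1 and 3 (3.02%). With TMM scaling 3 genes listed as flow-lowered rose. They were Pdgfb, the growth factor that recruits pericytes (2.69), Ccl2, a chemokine for monocytes (2.97), and Icam1, an adhesion protein for leukocytes (1.81). Pdgfb and Ccl2 also passed edgeR's quasi-likelihood F-test when scaled to endothelial markers (log2 fold change 1.36 and 1.64, adjusted p = 0.0136 and 0.0208). Ccl2 had 40.3, 179 and 96.8 CPM in KO 1, 2 and 3, against 11.96, 19.3 and 8.93 CPM in Ctrl 1, 2 and 3. KO 2 was the highest library for Ccl2, as it was for the microglial markers, whose part in this was not tested. The KO pups carry a transgene under the promoter of Pdgfb, and reads from it were not told apart from those of the gene.

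**Figure D3:**
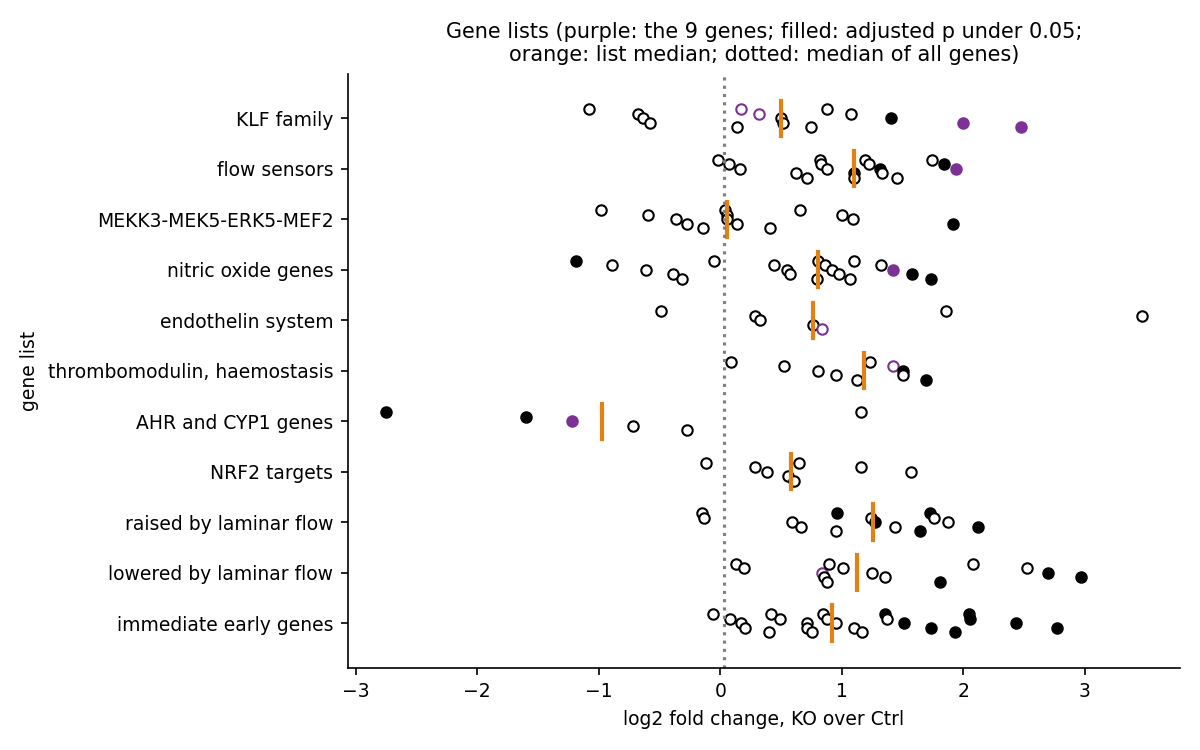
Log2 fold change, KO over Ctrl (horizontal axis), for each tested gene of 11 lists, on the TMM scale, with filled points past the threshold, purple points for the 9 genes and an orange bar at the list median. The list medians lie between 0.05 and 1.26 except for the AHR and CYP1 genes at −0.97, and the dotted line marks the median of all genes at 0.03.

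Because endothelial markers were higher in KO, the 9 genes were also set against them. Scaling the libraries to equal endothelial markers moved the median of all genes to −1.30, with 50.9% of genes past the threshold, 0.425% higher and 50.4% lower. On this scale Klf2 had a log2 fold change of 1.06 (SE 0.468), Klf4 one of 0.74 (SE 0.367) and Piezo1 one of 0.71 (SE 0.392). None of the 3 passed edgeR's quasi-likelihood F-test (adjusted p = 0.0739, 0.106 and 0.142). Nos3 was at 0.13 (SE 0.355), Thbd at 0.23 (SE 0.390) and Edn1 at −0.49 (SE 0.422), with adjusted p = 0.767, 0.642 and 0.348 in edgeR's test. Klf6 (−1.00), Klf10 (−1.17) and Cyp1b1 (−2.52) were past the threshold as lower in KO (adjusted p = 0.0380, 0.0215 and 0.00177). Relative to the shifted median of all genes, Klf6 and Klf10 lay 0.30 and 0.13 above it and Cyp1b1 1.22 below it.

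Library by library, Klf2 stood at −0.32, −0.63 and −0.54 log2 units from the endothelial marker mean in KO 1, 2 and 3, against −0.78, −2.67 and −1.81 in Ctrl 1, 2 and 3. The groups did not overlap, but KO 2 and Ctrl 1 came close. Klf4 was at −2.19, −2.53 and −2.50 in KO 1, 2 and 3, against −3.32, −3.31 and −2.83 in Ctrl 1, 2 and 3, again with no overlap. For Nos3 the groups overlapped, at −0.42 ± 0.241 in KO and −0.55 ± 0.0698 in Ctrl (SD, n = 3 each), as they did for Thbd and Edn1. Exact two-sided permutation tests gave p = 0.1, the smallest that 3 against 3 allows, for Klf2, Klf4, Klf6, Klf10, Piezo1 and Cyp1b1. The same exact permutation tests gave p = 0.6 for Nos3, 0.7 for Thbd and 0.2 for Edn1.

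**Figure D4:**
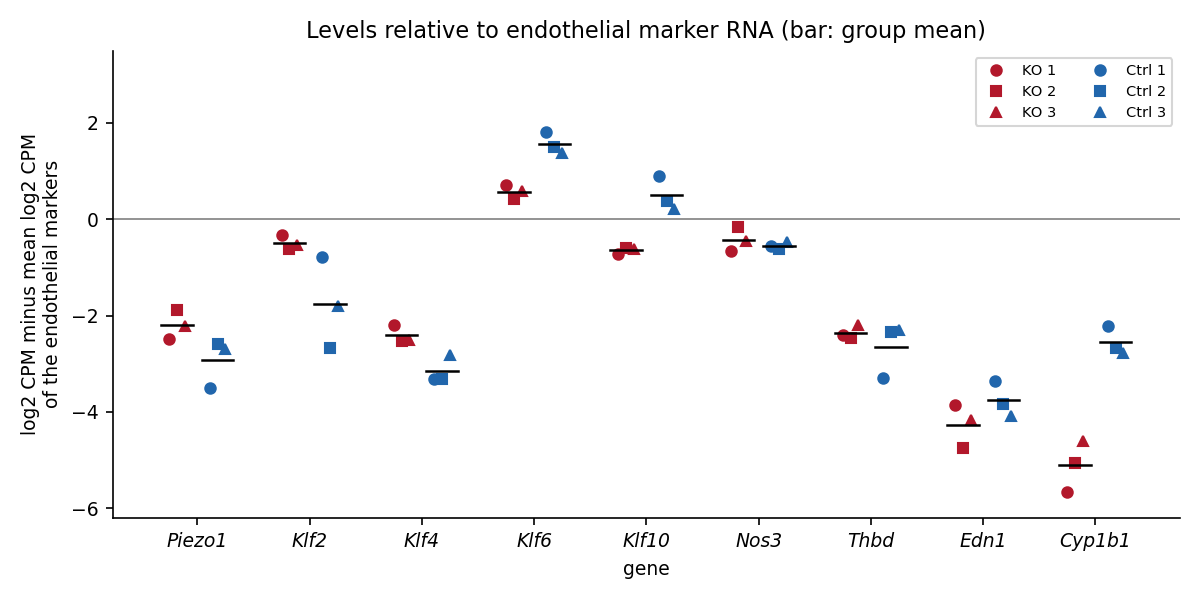
Log2 CPM of each gene minus the mean log2 CPM of the 15 endothelial markers (vertical axis) in each KO and Ctrl library, with the bar at the group mean. KO and Ctrl libraries of Nos3 lie at about the same height, those of Klf2, Klf4 and Piezo1 are higher in KO, and those of Klf6, Klf10 and Cyp1b1 are lower in KO.

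The GC content of the transcripts differed between the genes, at 61.6% for Klf2, 59.0% for Piezo1, 58.2% for Nos3 and 42.4% for Klf6. GC offsets, which called 12.3% of all genes, put Klf2 at 1.99 and Klf4 at 1.79 on the log2 scale, both past edgeR's quasi-likelihood F-test (adjusted p = 0.0237 and 0.0309). The log2 fold change was 0.95 for Nos3 and 1.38 for Piezo1, neither past the threshold of the same edgeR test (adjusted p = 0.0814 and 0.0812). Klf6 moved to 0.94 (adjusted p = 0.0509). Of the wider lists, Klf16 (0.91), Plxnd1 (1.29), Arg2 (−0.85), Ptgis (1.34) and Icam1 (1.44) also missed the threshold of edgeR's quasi-likelihood F-test with GC offsets (adjusted p = 0.1604, 0.100, 0.102, 0.0530 and 0.0579). Klf3 (1.46) then passed the same edgeR test as higher and Klf15 (−1.34) as lower (adjusted p = 0.0197 and 0.0472). In the KLF family 4 of 15 genes were then higher and 1 lower.

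**Figure D5:**
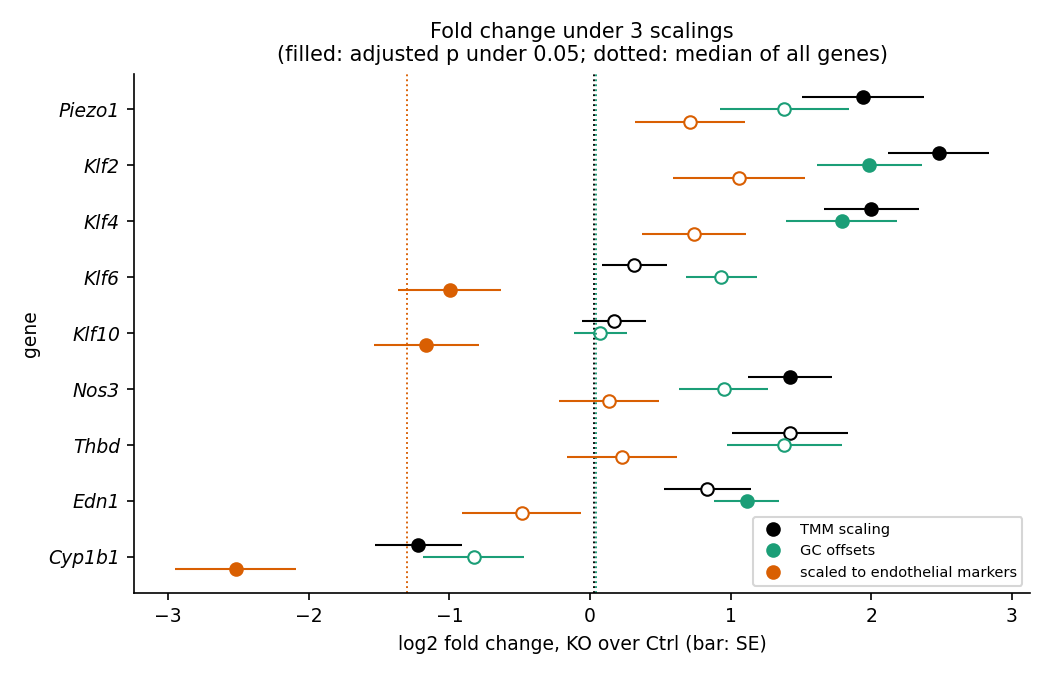
Log2 fold change, KO over Ctrl, ± SE (horizontal axis) for each gene under TMM scaling, with GC offsets, and scaled to endothelial markers. Klf2, Klf4, Piezo1, Nos3 and Thbd stay above 0 under all 3, while Klf6, Klf10 and Edn1 lie below 0 when scaled to endothelial markers, where the median of all genes is −1.30.

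The genes with profiles most like those of Klf2, Klf4 and Cyp1b1 were ranked among 12351 genes by the root mean square difference of centred log2 CPM over the 6 libraries. Nearest to Klf2 were Mybph (0.32 log2 units), Erf, Arf6 and the globin genes Hba-a1 and Hba-a2, near-identical copies with the same counts, and Klf4 ranked 132. Nearest to Klf4 were Irx3 (0.11), S100a13, Ube2m, Shank3 and Tinagl1, while Piezo1, Thbd and Nos3 ranked 171, 205 and 239. Nearest to Cyp1b1 were Zfp334 (0.08), Epb41l3, Epb41l2, Ccdc157 and Napg.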

How the data were processed

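RNA was sequenced from CD31-sorted retinal cells of 3 KO and 3 Ctrl pups, each library from a different pup per the labels. The kit does not mark strand. Per the submitters' processing notes, the authors used Trimmomatic 0.36, STAR, DESeq2, edgeR and deepTools with the mm10 build. For the counter and the release of its annotation, the version was not given in the sources used here.

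Raw counts are deposited for 34035 transcript entries, beside DESeq2 output: the authors' log2 fold changes and p-values, which are quoted only where that table is named. Its 12 columns of normalized values per library were not used. The Ctrl count column whose name gives none of the labels' replicate numbers is called Ctrl 3, the number left in its group.

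Each of 19124 symbols was represented by its longest entry, with ties settled by the higher count sum. Genes with low counts were removed with edgeR's filterByExpr, which left 16217. CPM and fold changes (KO over Ctrl) used TMM scaling, and the test was edgeR's quasi-likelihood F-test (edgeR 4.0.16, R 4.3.3) over all genes with Benjamini-Hochberg adjustment and a threshold of 0.05. Alternatives were DESeq2 1.42.0, limma-voom (limma 3.58.1), DESeq2 size factors, no filter, another entry per gene, offsets for transcript GC content (known for 99.2% of genes), scaling to the 15 endothelial markers, a replicate block and leaving out each library. Leaving out a library together with endothelial scaling was added after the data were seen. The fit was run on simulated data with the same spread for all genes and no difference in cell make-up between libraries. Such data cannot show how the fit handles the libraries used here. Groups of 3 allow an exact permutation p of 0.1 at the lowest.

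The 9 genes and all lists were chosen with earlier results of these data known. Beside them the text names Rnf20, in each list the 2 other genes with the smallest adjusted p, genes that overlap the 9, and the 5 genes with profiles nearest to Klf2, Klf4 and Cyp1b1 among those averaging at least 5 CPM. Cdh5, Piezo2, Klf15, Klf12, Klf9, Fos, Egr1, Pts, Arg2, Ece1, Arnt, Tiparp, Cyp1a1 and Icam1 were chosen after their values were seen. Pecam1, Tek, Nfe2l2 and Keap1 are named only as members of their lists. One gene that the rule for the lists selects is not reported here.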

Additional observations from a re-analysis of the deposited data

How the results depend on the processing

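Outside endothelial scaling, all 9 genes kept the sign of their log2 fold change in 14 of 14 alternatives. Each library held at least 14581701 counts.

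Of all genes, DESeq2 called 3565 and endothelial scaling 8247, against 1668 with edgeR and TMM scaling. Scaled to endothelial markers, 3 of the 9 genes passed, all lower in KO, at log2 fold changes of −1.00 for Klf6, −1.17 for Klf10 and −2.52 for Cyp1b1. Klf2 (1.06), Klf4 (0.74), Nos3 (0.13) and Piezo1 (0.71) no longer passed, and Edn1 turned to −0.49. Of the other genes named, Ctu2 (−0.37), Atg9b (−0.12), Cdh5 (−0.16), Map3k3 (−0.21), Klf3 (−0.19), Fos (−1.10), Egr1 (−1.24), Ece1 (−1.04) and Nqo1 (−0.073) turned too. Of genes called as higher with TMM scaling, Gch1 (0.48), Spr (0.23), Hdac7 (0.59), Plxnd1 (0.56), Flt4 (0.0019) and Gja4 (0.92) lost their calls. Ptgis (0.49), Procr (0.49), Klf16 (0.12), Icam1 (0.58), Rhob (0.73), Nfkbia (0.74) and Cdh5 lost theirs too. So did Mybph, Arf6, Irx3, S100a13, Ube2m, Shank3 and Tinagl1, while Pdgfb, Ccl2, Erf and Hba-a1 kept their calls as higher. That scaling moves every value down by construction.

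With GC offsets 3 of the 9 passed: Klf2, Klf4 and Edn1 (1.11), while Nos3 (0.95), Piezo1 (1.38) and Cyp1b1 (−0.83) did not, and Egr1 turned to −0.14. Thbd passed with DESeq2 (1.46) and limma-voom (1.65), and Edn1 with DESeq2 (0.86). Limma-voom put Egr1 at −0.0026. Cyp1b1 (−1.22) missed the threshold without the filter. Arg2 (−1.20) missed it too. Without KO 3, Ahrr, Arg2, Cdh5, Icam1, Klf16, Procr, Ptgis and Spr lost their calls. The cause was not tested for these.

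With a replicate block, 1 gene passed and 0 of the 9, with Klf2 at 2.55, Klf4 at 2.05, Nos3 at 1.42, Piezo1 at 2.04 and Cyp1b1 at −1.26. With the replicate block and GC offsets, 2 genes passed and 0 of the 9, with Klf2 at 1.95, Klf4 at 1.81, Nos3 at 0.98, Piezo1 at 1.53, Cyp1b1 at −0.93 and Egr1 at −0.18. Same-numbered libraries did not deviate together (correlations of −0.39, 0.07 and −0.26). With 3 libraries per group, and Ctrl 3 numbered by elimination, these correlations cannot show whether the pups were paired.

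Leaving out 1 library gave between 0 and 4927 genes past the threshold and between 0 and 6 of the 9. The log2 fold change lay between 2.20 and 2.79 for Klf2, 1.76 and 2.30 for Klf4, 0.24 and 0.45 for Klf6, 0.08 and 0.31 for Klf10, 1.21 and 1.60 for Nos3, 1.05 and 1.66 for Thbd, 1.59 and 2.19 for Piezo1, −1.32 and −0.94 for Cyp1b1, 0.64 and 1.01 for Edn1, and −0.051 and 0.42 for Egr1. With endothelial scaling as well, between 4929 and 8061 genes and between 1 and 3 of the 9 passed. These calls of the 9 were lower in KO, except that Klf2 passed as higher without Ctrl 1 (1.69, adjusted p = 0.0163 in edgeR's test). In that fit 46 of 16533 genes were called as higher. The ranges were then 0.71 to 1.69 for Klf2, 0.62 to 0.92 for Klf4, −1.08 to −0.86 for Klf6, −1.30 to −0.94 for Klf10, −0.0035 to 0.24 for Nos3, −0.035 to 0.39 for Thbd, 0.48 to 0.88 for Piezo1, −2.81 to −2.28 for Cyp1b1 and −0.71 to −0.26 for Edn1.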

Other observations

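NRF2 drives genes that protect against oxidants, and flow is known to activate it in endothelium. Of 8 genes of the NRF2 list, 0 passed edgeR's quasi-likelihood F-test. The list holds NRF2 targets, Nfe2l2, which encodes NRF2, and Keap1, its inhibitor. In that test 1 of the 8 had an unadjusted p below 0.05, beside 4953 of all 16217 genes tested. DESeq2 called 0 of the 8 as well. Nqo1, a quinone reductase that AHR also induces, had 7.72, 4.46 and 5.93 CPM in KO 1, 2 and 3, against 1.64, 2.93 and 3.58 CPM in Ctrl 1, 2 and 3. Its groups did not overlap, and its log2 fold change of 1.16 lay opposite to those of Cyp1b1, Ahr and Ahrr (adjusted p = 0.130 by edgeR). Hmox1, a haem-degrading enzyme, had 82.6, 516 and 172 CPM in KO 1, 2 and 3, against 28.9, 150 and 80.6 CPM in Ctrl 1, 2 and 3. Its groups overlapped, with KO 2 the highest library.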
